A study of Mus musculus with 12 samples.

Results

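Fos, Fosb, Jun, Junb, Jund, Egr1, Ier2, Atf3, Dusp1 and Btg2 are 10 genes of the immediate early response and of the transcription factor AP-1. They were followed in macrophages sorted from the marrow of treated and untreated bones. They were chosen by gene symbol, and 10 of 10 were found among the 23420 gene rows of the count table and were among the 11806 genes that passed the filter on low counts. The libraries are bulk RNA-seq of macrophages sorted from nucleated marrow cells of 2 mice, numbered 7 and 19, both of the C57BL/6 strain kept on a C57BL/6J background. Mesenchymal stromal cells (MSCs), fibroblast-like cells that support blood formation, had been given to the tibia of each mouse, and the femur received none. The labels call the cells of the treated tibia MSC-educated macrophages and those of the femur macrophages. Each bone of each mouse gave 3 libraries, 12 in all. As treatment went with the tibia in both animals, its effect and that of the bone cannot be told apart. The series title refers to leukaemia, but the sources used here do not say whether these 2 animals carried it, how the MSCs were given, how long before sorting, or which surface markers defined a macrophage. The labels also do not say whether the 3 libraries of a bone are separate sorts or come from 1 RNA sample, so p-values measure the spread between libraries, which may be technical.

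Immediate early genes are switched on within minutes of a stimulus without new protein synthesis, through transcription factors that wait at their promoters and are activated by MAP kinases and other kinases. Fos and Jun family proteins pair through leucine zippers to form AP-1, which binds short palindromic DNA sites in promoters and enhancers, and other members of the response shut it down again by removing phosphates from MAP kinases or by destabilising mRNA. In macrophages the response follows contact with microbial products, cytokines and growth factors, and it is also known to follow tissue dissociation and other handling of cells.

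Promoter sequences are shown for 4 of these genes because the 10 transcripts moved together between libraries (described further on), and because these 4 hold a searched motif upstream of the start site. They come from RefSeq on build GRCm38.p6, the assembly that mm10 names, and a window of 300 bases (250 before to 50 after the start) was at hand for 8 of the 10 genes, all but Egr1 and Ier2. Each line below gives the 170 bases before the start, 5′ to 3′ on the strand of the gene, with the motif in capitals. The stretches are chr12:85473720-85473889 on the plus strand for Fos, chr7:19310046-19310215 on the minus strand for Fosb (from a start inside the gene's outer limits), chr17:26508473-26508642 on the minus strand for Dusp1 and chr1:134079156-134079325 on the minus strand for Btg2.
Fos: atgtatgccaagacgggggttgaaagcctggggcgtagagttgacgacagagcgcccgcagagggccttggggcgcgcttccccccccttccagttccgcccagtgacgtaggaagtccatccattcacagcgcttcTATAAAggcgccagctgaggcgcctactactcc
Fosb: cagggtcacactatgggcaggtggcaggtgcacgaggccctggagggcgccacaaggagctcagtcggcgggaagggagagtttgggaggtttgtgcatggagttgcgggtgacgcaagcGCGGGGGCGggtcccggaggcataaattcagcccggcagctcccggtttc
Dusp1: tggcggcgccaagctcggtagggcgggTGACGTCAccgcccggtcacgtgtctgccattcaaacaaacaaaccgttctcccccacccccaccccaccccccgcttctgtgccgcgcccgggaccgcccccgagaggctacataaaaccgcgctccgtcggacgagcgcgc
Btg2: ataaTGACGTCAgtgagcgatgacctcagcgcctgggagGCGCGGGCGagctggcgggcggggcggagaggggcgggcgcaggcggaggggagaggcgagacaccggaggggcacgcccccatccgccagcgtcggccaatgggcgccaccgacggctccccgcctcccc

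In Fos the capitals mark the TATA box letters TATAAA, from base -33 to -28 counted from the start. In Fosb they mark GCGNGGGCG, the letters bound by Egr factors (bases -50 to -42). Dusp1 and Btg2 each hold the full cyclic AMP response element TGACGTCA, to which CREB and ATF factors bind, at bases -143 to -136 and -166 to -159. Btg2 also holds an Egr-type GCGNGGGCG at bases -131 to -123. Both strands were searched. Over all 32851 promoter windows of the same length, TATAAA was present in 13.6%, GCGNGGGCG in 5.55% and TGACGTCA in 1.79%. The AP-1 letters TGANTCA (7.81% of all windows) and the CArG box of the serum response element (1.63%) were found in none of the 8 windows. Junb held TATAAA just after the start (bases 1 to 6), and Jun, Jund and Atf3 held none of the 5 motifs in the window. The Jund window was taken at the outer limit of the RefSeq gene (chr8:70697739-70700616). That gene spans more than the single exon of 1668 bases used for its length, so another Jund start may lie outside the window. The serum response element known for Fos lies further upstream than the window reaches. A match describes letters and is not evidence of binding. Only exact letters were searched, so near variants of a motif were not counted, and a window without a match may still hold a site.

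Total counts ran from 9773455 to 14869150 per library, and the lowest belonged to femur library 1 of mouse 19, which also had the highest or next to highest level of 8 of the 10 genes. Levels are given as CPM, the count of a gene divided by the TMM-scaled total of its library and brought to a common total. The sorted cells carried macrophage transcripts in every library: the 12 macrophage markers summed to 16283 to 19537 CPM in the femur and 15813 to 17726 CPM in the tibia, with Lyz2 at 13940.4 CPM and Csf1r at 950.5 CPM on average. Lyz2 thus made up most of the sum, which says little about the other markers and does not measure the share of macrophages. Siglec1, Vcam1, Mertk and Cd163 were far lower, at 26.9, 16.1, 7.27 and 2.57 CPM. Transcripts of other marrow cells were present too. Neutrophil markers summed to 16359 to 29231 CPM. In every library of mouse 19 they summed to more than the macrophage markers, and in mouse 7 the order varied. Sums of different lists do not compare numbers of cells. Elane, Mpo and the other granulocyte precursor genes rose in the tibia (5 of 5 tested), with sums of 649.7 to 1386 CPM in the femur and 963 to 1697 CPM in the tibia. The part of these other cells in the results that follow was not tested, and in bulk RNA fewer cells of a type and less RNA per cell cannot be told apart.

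No difference between treated tibia and untreated femur was detectable for any of the 10 transcripts. For each, the SD between libraries of a bone was larger than the log2 change between bones over both mice. In the comparison over both mice, 0 of the 10 genes were called higher and 0 lower at an adjusted p under 0.05 (edgeR's quasi-likelihood test with the mouse as a term, Benjamini-Hochberg adjustment over all 11806 genes). Of all genes tested 7.2% were called, 3.51% higher and 3.69% lower. Only Junb had an unadjusted p under 0.05, and DESeq2 called 0 of the 10. The estimates were positive for 8 of the 10 genes. Among the 95% intervals, the highest upper bound was that of Atf3, 0.62 on the log2 scale or 1.54-fold, and the lowest lower bound that of Fosb, -0.40 or 0.759-fold. With no filter on low counts, Junb, Atf3 and Dusp1 were called higher, and in that fit the spread used for each of the 10 genes equalled the value shared by all genes of like abundance: for Dusp1 the estimate of spread fell from 22.2 times that shared value to 1 times it.

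**Figure D1:**
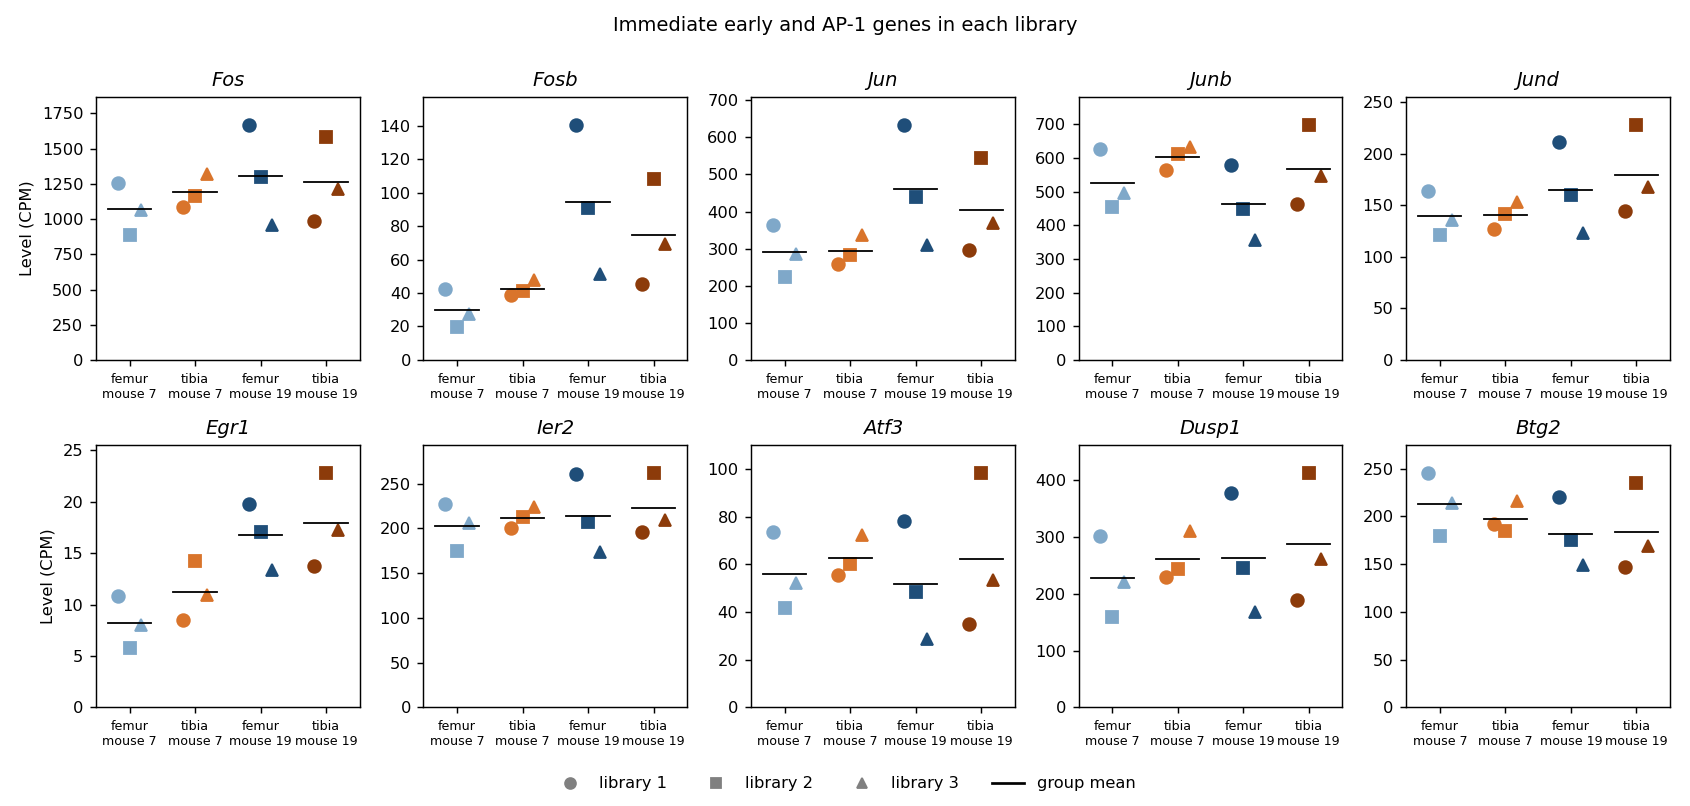
Level of each of the 10 genes (vertical axes, CPM, starting at 0) in each of the 12 libraries, by bone and mouse, with blue for femur, orange for tibia and a black line at the mean of 3 libraries. In each panel the tibia and femur points of 1 mouse overlap, and femur library 1 and tibia library 2 of mouse 19 are the highest of their own bone and mouse.

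Fos was the most abundant of the 10. It encodes the founding partner of Jun in AP-1 and lies on chromosome 12 from 85473890 to 85477274. In mouse 7 the femur libraries held 1256, 887 and 1063 CPM and the tibia libraries 1085, 1166 and 1317 CPM. In mouse 19 the femur libraries held 1666, 1297 and 961 CPM and the tibia libraries 986, 1581 and 1215 CPM. The bones overlapped in both mice, and the lowest and highest libraries of mouse 19 belonged to the same bone. Over 6 libraries each, tibia held 1225 ± 208 and femur 1188 ± 284 CPM (mean ± SD). The log2 fold change, tibia over femur, was 0.05 ± 0.10 (SE), with an adjusted p of 0.840 (edgeR).

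Fosb encodes a close relative of Fos that also pairs with Jun proteins, and it lies on chromosome 7. Its femur libraries held 42.6, 19.9 and 27.5 CPM in mouse 7 and 140.3, 91.1 and 51.5 CPM in mouse 19. Its tibia libraries held 39.1, 41.0 and 47.5 CPM in mouse 7 and 45.4, 108 and 69.6 CPM in mouse 19. Mouse 19 was the higher animal in both bones, and its lowest library lay above all but 1 of the libraries of mouse 7. Over both mice the log2 fold change was 0.04 ± 0.21 (adjusted p = 0.945, edgeR). Fosb had the most unlike estimates in the 2 animals, 0.51 ± 0.27 in mouse 7 and -0.33 ± 0.23 in mouse 19. The test of that difference gave -0.85 ± 0.36, with an unadjusted p of 0.0243 and an adjusted p of 0.223. The difference passed the threshold when femur library 3 or tibia library 2 of mouse 19 was left out, with an adjusted p down to 0.0209 and a log2 difference as large as -1.23, and with no filter on low counts (-0.85, adjusted p = 4.8e-14).

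The 3 Jun genes encode the other side of AP-1. Jun is the strongest activator of the family, while Junb and Jund are weaker activators that can hold Jun in check. Jun itself lies on chromosome 4. It stood at 365, 224 and 287 CPM in the femur and 259, 283 and 336 CPM in the tibia of mouse 7. In mouse 19 it stood at 632, 439.5 and 311 CPM in the femur and 295, 544 and 369 CPM in the tibia. The bones overlapped in both mice. On the log2 scale tibia over femur was -0.09 ± 0.14 (adjusted p = 0.760, edgeR), and 2 of 6 tibia libraries lay above the femur mean of their mouse.

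Junb was the gene nearest to a call. It lies on chromosome 8 from 84976909 to 84978748. The femur libraries of mouse 7 held 627, 455 and 494 CPM and its tibia libraries 563, 610.4 and 631 CPM. In mouse 19 the femur libraries held 579, 449 and 357 CPM and the tibia libraries 463, 697 and 545 CPM. All 6 tibia libraries lay above the femur mean of their own mouse, and in both mice femur library 1 reached into the tibia range. Over 6 libraries each, tibia held 585 ± 80.3 and femur 494 ± 97.1 CPM. The log2 fold change was 0.25 ± 0.09, or 1.19-fold with a 95% interval of 1.04 to 1.35, at an unadjusted p of 0.0130 and an adjusted p of 0.107 (edgeR). Junb passed the threshold when a single library was left out, which held for femur library 1 of mouse 7 (adjusted p = 0.0392) and of mouse 19 (0.0243) and for tibia library 1 of mouse 19 (0.0443). Over all single libraries left out, its adjusted p ran from 0.0243 to 0.290. In mouse 19 alone its log2 fold change was 0.30 ± 0.12 (adjusted p = 0.158), which passed when library 1 of either bone of that mouse was left out (adjusted p down to 0.0100). In mouse 7 it was 0.20 ± 0.12 (0.336).

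Jund, also on chromosome 8 and known as the steadily expressed Jun gene, held 164, 121 and 135 CPM in the femur and 127, 142 and 154 CPM in the tibia of mouse 7. In mouse 19 it held 212, 160.4 and 123 CPM in the femur and 144, 228 and 168 CPM in the tibia. Its libraries followed the same order as those of Jun in every bone. Between bones the log2 fold change was 0.07 ± 0.10 (adjusted p = 0.767, edgeR).

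**Figure D2:**
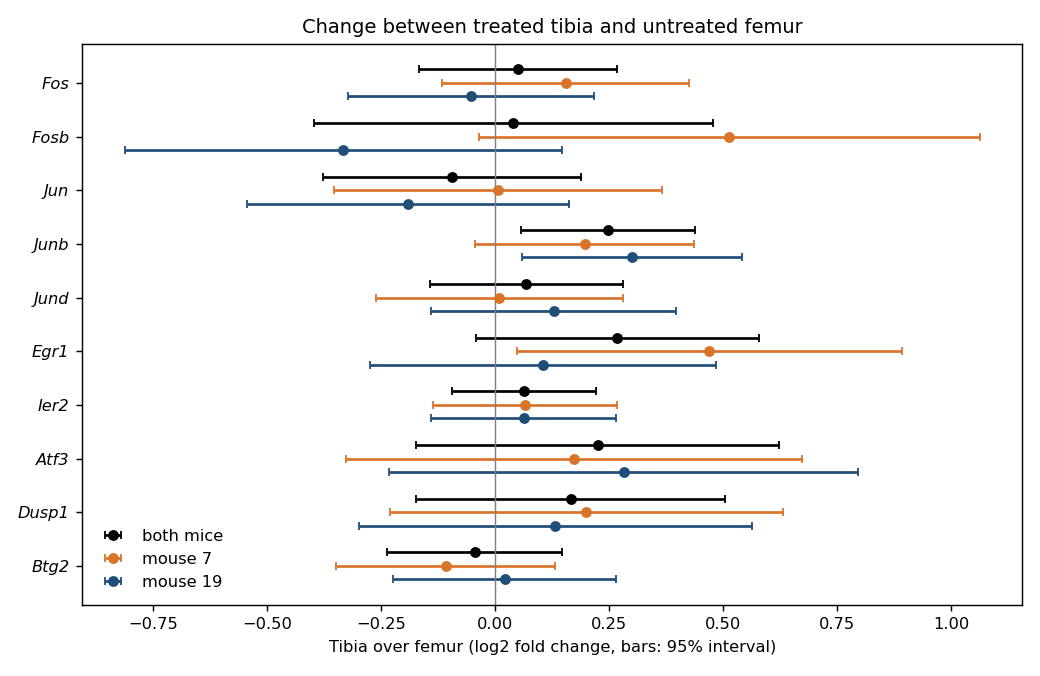
Log2 fold change of tibia over femur (horizontal axis) for each of the 10 genes, in both mice together (black), mouse 7 (orange) and mouse 19 (blue), with bars for the 95% interval. The interval lies above 0 for Junb in both mice together and in mouse 19 and for Egr1 in mouse 7, and no estimate passed the threshold after adjustment.

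Egr1, Atf3 and Ier2 are the other immediate early regulators. Egr1 encodes a zinc finger factor induced along with Fos and linked to the macrophage fate of myeloid cells, and it was the least abundant of the 10. It lies on chromosome 18. Its femur libraries held 10.9, 5.75 and 7.99 CPM in mouse 7 and 19.8, 17.1 and 13.4 CPM in mouse 19, and its tibia libraries 8.55, 14.3 and 11.0 CPM in mouse 7 and 13.8, 22.8 and 17.3 CPM in mouse 19. Tibia and femur overlapped within each mouse, with 5 of 6 tibia libraries above the femur mean of their mouse. The log2 fold change was 0.27 ± 0.15 over both mice (adjusted p = 0.322, edgeR) and 0.47 ± 0.21 in mouse 7 (0.164).

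Atf3 encodes a stress-induced factor with a leucine zipper that pairs with Jun proteins and dampens inflammatory genes in macrophages. On chromosome 1, it held 73.6, 41.8 and 52.0 CPM in the femur and 55.7, 60.0 and 72.3 CPM in the tibia of mouse 7. In mouse 19 it held 78.2, 48.6 and 28.7 CPM in the femur and 35.2, 98.4 and 53.5 CPM in the tibia. Tibia library 2 held 2.80 times as much as tibia library 1 of the same mouse, the widest gap within a bone among the 10 genes. The log2 fold change between bones was 0.22 ± 0.19 (adjusted p = 0.548, edgeR). Ier2, a short intronless immediate early gene on chromosome 8, varied least. Its femur libraries held 227, 174 and 206 CPM in mouse 7 and 260.3, 207 and 173 CPM in mouse 19, and its tibia libraries 199.9, 212 and 223 CPM in mouse 7 and 196, 262 and 209.8 CPM in mouse 19. The highest and lowest of these 12 values differed 1.51-fold. Its log2 fold change was 0.06 ± 0.08 (adjusted p = 0.698, edgeR).

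The last pair belongs to the feedback arm of the response. Dusp1 encodes a phosphatase that switches off p38 and JNK, and in macrophages it limits cytokine production. On chromosome 17, it held 302, 159 and 221 CPM in the femur and 229, 244 and 309.9 CPM in the tibia of mouse 7. In mouse 19 it held 377, 246 and 167 CPM in the femur and 189, 413 and 262 CPM in the tibia. The bones overlapped in both mice, and the log2 fold change was 0.17 ± 0.16 (adjusted p = 0.617, edgeR). Btg2 encodes an antiproliferative protein that promotes the shortening of mRNA tails, and lies on chromosome 1. Its femur libraries held 246, 179.7 and 214 CPM in mouse 7 and 219.9, 175 and 149.6 CPM in mouse 19, and its tibia libraries 192, 184 and 216 CPM in mouse 7 and 147, 235 and 169 CPM in mouse 19. The log2 fold change was -0.05 ± 0.09 (adjusted p = 0.838, edgeR), the other negative estimate beside that of Jun.

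Per kilobase of exon, Fos led with 572 ± 113 CPM per kb over the 12 libraries (mean ± SD), followed by Junb with 298 ± 53.8. The ranges of these genes did not overlap. The lowest Junb library (197.5) lay above the highest Ier2 library (172), the next by mean, but below the highest Dusp1 (208) and Jun (198.3) libraries. Ier2 (139.7 ± 18.3), Dusp1 (131 ± 39.5), Jun (114 ± 38.02), Jund (93.8 ± 20.1) and Btg2 (70.7 ± 11.7) formed a middle group in which each neighbour overlapped the next. Atf3 (29.3 ± 9.95) lay below all Btg2 values and overlapped Fosb (16.0 ± 9.45), and Fosb overlapped Egr1 (4.46 ± 1.67). The length used for Jund differs between annotations, which would shift its place within the middle group.

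Within each animal the picture was the same. In mouse 7, 0 of the 10 genes were called (9.73% of all genes were, 4.37% higher and 5.36% lower), and Egr1 alone had an unadjusted p under 0.05. In mouse 19, 0 were called against 5.17% of all genes (2.96% higher and 2.21% lower), and Junb alone had an unadjusted p under 0.05. The change in mouse 19 minus that in mouse 7 was called for 0 of the 10 genes and for 4.74% of all genes (2.89% higher and 1.85% lower), and DESeq2 called 0 of the 10 in all 3 of these comparisons. There was no gene of the 10 whose 3 tibia libraries all lay above, or all below, the 3 femur libraries of the same mouse. Such separation was found for 26.6% of all genes in mouse 7 and 21% in mouse 19.

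When the 3 libraries of each bone were summed, so that the animal was the unit, 0 of the 10 genes were called (0.551% of all genes were) and 4 had an unadjusted p under 0.05: Junb, Atf3, Dusp1 and Egr1. Junb had the smallest adjusted p on the sums, 0.0721. That fit leaves 1 residual degree of freedom from 2 mice and takes most of its estimate of spread from other genes. Its estimate for Junb was 1.00 times the shared value, whereas the estimate between libraries was 8.63 times it.

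The animals themselves differed in the femur. Among the untreated femurs, Fosb was 3.12-fold higher in mouse 19 than in mouse 7 (log2 difference 1.64 ± 0.26, adjusted p = 9.6e-06, edgeR), Egr1 was 2.04-fold higher (1.03 ± 0.20, adjusted p = 2.3e-04) and Jun 1.58-fold higher (0.66 ± 0.17, adjusted p = 0.0048). All 3 femur libraries of mouse 19 lay above all 3 of mouse 7 for Fosb and Egr1, while for Jun they overlapped. So 3 of the 10 genes were higher and 0 lower. Of all genes 28.4% were called, 14.1% higher and 14.3% lower, and with 1 animal on each side the difference is between these 2 mice. Junb, Atf3 and Btg2 had negative estimates that did not pass (-0.19, -0.13 and -0.23). DESeq2 called Fosb and Egr1 but not Jun (adjusted p = 0.116). The call on Jun was lost when either femur library 2 of mouse 7 or library 1 of the mouse 19 femur was left out (adjusted p up to 0.100). Without femur library 3 of mouse 19, 5 genes were called higher, and without femur library 1 of mouse 19, 2 were called lower.

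The clearest pattern in these 10 genes lay between libraries of the same bone. In mouse 19, femur library 1 was above the group mean for 10 of 10 genes and femur library 3 for 0 of 10, and tibia library 2 was above for 10 of 10 and tibia library 1 for 0 of 10. In mouse 7, femur library 1 was above for 10 of 10 and femur library 2 for 0 of 10. The average deviation of the 10 genes from their group means ran from -0.46 in femur library 3 to 0.45 in femur library 1 and tibia library 2 of mouse 19, in log2 units. The tibia of mouse 7 was the most even, from -0.15 to 0.14. High and low libraries were thus found in both bones and both animals.

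**Figure D3:**
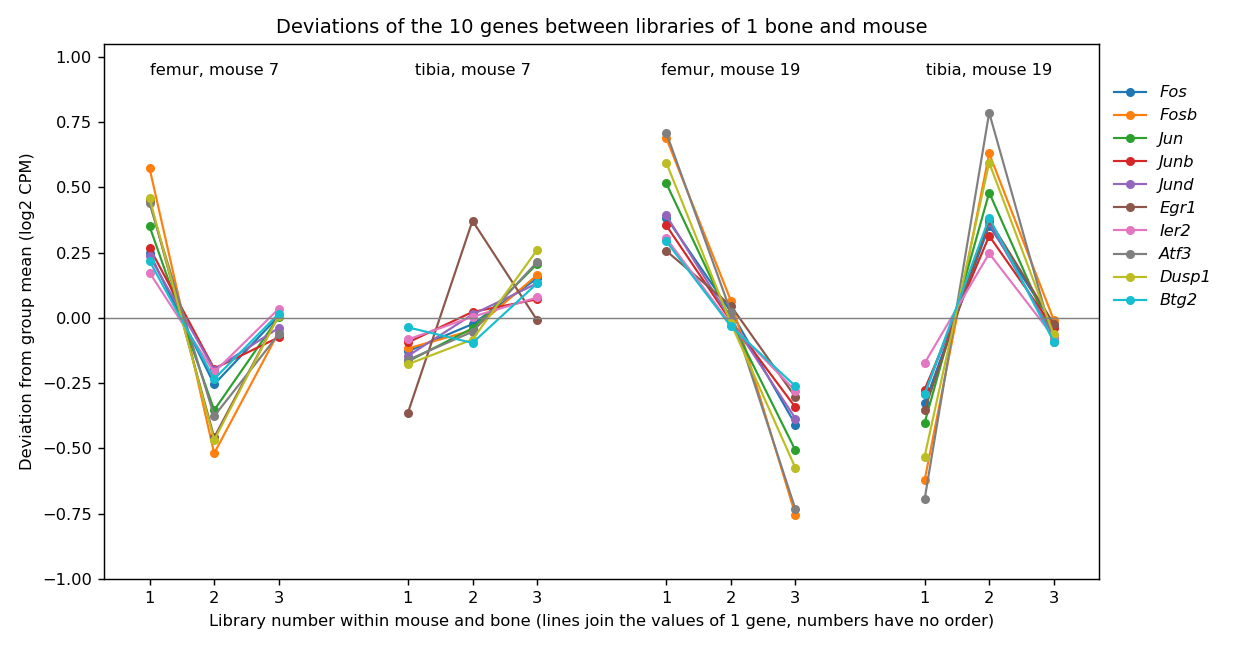
Deviation of each gene from the mean of its bone and mouse (vertical axis, log2 CPM) in the 3 libraries of each group (horizontal axis), with 1 coloured line per gene. The lines run together in all 4 groups, with Atf3 and Fosb spanning the most and Ier2 the least, and Egr1 departs from the rest in the tibia of mouse 7.

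After subtraction of the group means, the 45 pairs of these genes had a median Pearson r of 0.983 over the 12 libraries, from 0.764 to 0.997. Without Egr1 the lowest of the 36 remaining pairs was 0.952. These 12 points share libraries, depth and scaling, and the correlations are given as a description. The median r was 0.960 in mouse 7 and 0.991 in mouse 19, 0.987 in the femur and 0.978 in the tibia, and it ran from 0.976 to 0.985 when any 1 library was left out.

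The spread of these genes was large. In the fit over both mice, their estimate of spread ran from 2.38 times (Egr1) to 22.2 times (Dusp1) the value shared by genes of like abundance. The SD between libraries of 1 bone and mouse was 0.57 log2 units for Atf3, 0.56 for Fosb, 0.48 for Dusp1, 0.39 for Jun, 0.37 for Egr1, 0.30 for Fos, 0.29 for Jund, 0.26 for Junb and Btg2 and 0.21 for Ier2. Among 9073 genes with at least 5 CPM in every library the median SD was 0.0891 and the 95th percentile 0.206, so 10 of the 10 genes lay above it. This comparison of SDs was not matched for abundance. For each of the 10 the SD between libraries was larger than the log2 change between bones over both mice. The widest ratio of highest to lowest library in a bone was 2.72 for Fosb, 2.25 for Dusp1, 2.03 for Jun and 1.73 for Fos, all in the femur of mouse 19. The change between bones in the fit over both mice was at most 1.204-fold (Egr1). That is an average over libraries and mice, so it is not a like measure. Within single mice, Fosb stood at 1.43-fold in mouse 7 and 0.794-fold in mouse 19, and Egr1 at 1.38-fold in mouse 7.

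**Figure D4:**
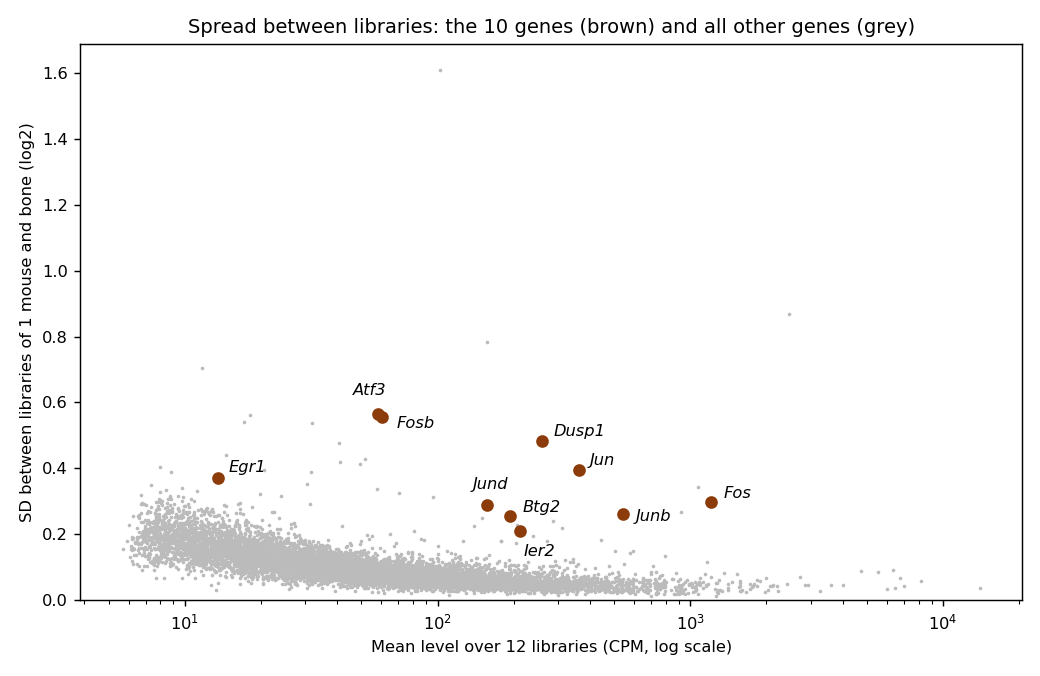
SD between libraries of the same bone and mouse (vertical axis, log2 units) against the mean level (horizontal axis, CPM on a log scale) for 9073 genes (grey) and the 10 immediate early and AP-1 genes (brown). The brown points lie above the grey band at their abundance, with Atf3 at 0.57 and Ier2 at 0.21.

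Several other measures moved with this swing. Over the 12 libraries, each centred on its group, the average deviation of the 10 genes had r = -0.74 with the total count, -0.73 with the sum of the granulocyte precursor markers, -0.84 with that of the stromal markers (which summed to only 2.47 to 9.96 CPM), -0.71 with that of the dendritic cell markers and 0.73 with that of the heat shock genes. It had r = -0.58 with the number of genes detected, -0.51 with the neutrophil markers, 0.49 with the erythroid and 0.48 with the megakaryocyte markers. With the macrophage markers r was 0.45, and with the ribosomal RNA gene Rn45s 0.24. The remaining marker sums had r between -0.42 and 0.35. The part of depth, other cells or handling in the swing was not tested.

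The make-up of the Jun family changed less from library to library than its amount. Per kilobase, Junb made up 62.0, 63.8 and 61.5% of Jun, Junb and Jund together in the femur libraries of mouse 7, and 66.4, 66.0 and 63.9% in its tibia libraries. In mouse 19 it made up 49.6, 51.5 and 53.5% in the femur and 58.8, 55.6 and 58.2% in the tibia. The share of Junb was thus higher in all 3 tibia libraries than in all 3 femur libraries of the same mouse, in both mice. Jun made up 30.7, 28.6 and 26.4% in the femur and 21.3, 24.7 and 22.4% in the tibia of mouse 19. In mouse 7 its shares overlapped, at 20.5, 17.8 and 20.2% in the femur and 17.3, 17.4 and 19.3% in the tibia. Femur library 1 and tibia library 2 of mouse 19, which were above their group mean in all 10 genes, had the lowest share of Junb in their bones. This ratio was chosen after its values were seen and is given without a test. A share shows that the genes changed unequally and not which of them changed.

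**Figure D5:**
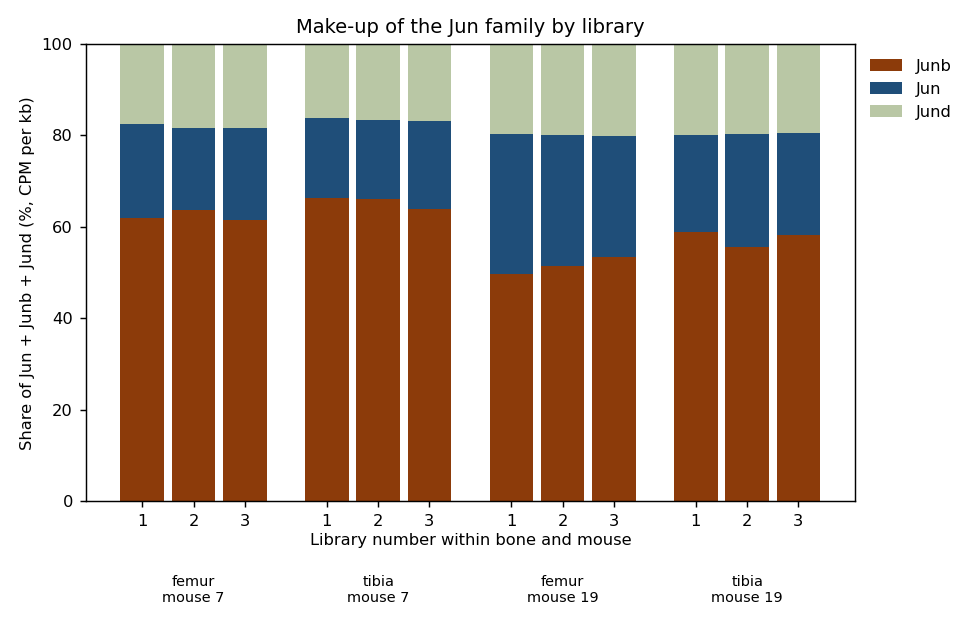
Share of Junb (brown), Jun (blue) and Jund (green) in the sum of the 3 genes (vertical axis, percent of CPM per kilobase) in each of the 12 libraries, by bone and mouse. The share of Junb is higher in the tibia than in the femur of each mouse, and lower in mouse 19 (49.6 to 58.8%) than in mouse 7 (61.5 to 66.4%).

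The genes whose levels most resembled those of the 10 were found among 7966 genes with at least 10 CPM in every library, after subtraction of the mean of each mouse. Closest was Ppp1r15a (r = 0.980 over 12 libraries), which encodes a partner of the phosphatase that restores translation after stress. Then came Zfp36 (0.976), which encodes the mRNA-destabilising protein tristetraprolin, the chemokine gene Ccl2 (0.948), the cytokine gene Osm (0.940) and the chemokine gene Ccl3 (0.936). Zfp36 ran from 670.4 CPM in femur library 3 to 1177 CPM in tibia library 2 of mouse 19. Ccl2 held 30.1 CPM in femur library 1 and 11.6 CPM in femur library 3 of mouse 19. None of these 5 genes passed the test between bones. The nearest was Osm, with a log2 fold change of 0.41 ± 0.17 (adjusted p = 0.148, edgeR).

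Many other immediate early genes followed the same libraries, and none of the upstream kinases did so as closely. With the mean of each bone and mouse subtracted, 34 of the 7966 genes (0.427%) had r of at least 0.9 with the 10 genes, and 5 (0.0628%) had r of -0.9 or lower. From a list of other immediate early genes, 14 of the 26 in this set had r of at least 0.9, among them Nr4a1, Ier3, Klf2, Klf4, Zfp36, Nfkbiz and Socs3, and the median r of the list was 0.91. Of 27 upstream kinases and factors, such as the ERK, JNK and p38 cascades and SRF with its partners, 0 did so, and their median r was -0.06. The AP-1 relatives gave 1 of 15, the commonly given AP-1 targets 1 of 12 (Ccl2), the BTG and TOB family 1 of 7 (Btg1), the MAP kinase phosphatases 0 of 4 and the heat shock genes 0 of 10. This minimum of 0.9 was chosen after the data were seen.

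Among the further genes on the lists, AP-1 targets and heat shock genes included, 14 of 125 tested were called higher and 9 lower in the tibia over both mice. That was 18.4%, against 7.2% of all genes, and on sums per animal 4 were higher and 4 lower. The lists were chosen with earlier results of these data known, so this share cannot be read as an excess in the pathway. AP-1 targets gave 6 of the higher and 2 of the lower calls, and heat shock genes 1 and 3. Of the 21 tested AP-1 relatives, 2 rose and 1 fell. Maf, a large leucine zipper factor of macrophages, rose from 23.9 ± 7.25 CPM in femur libraries to 35.2 ± 1.97 CPM in tibia libraries (mean ± SD of 6; log2 fold change 0.58 ± 0.11, adjusted p = 0.0011, edgeR), by 1.01 on the log2 scale in mouse 19 and 0.21 in mouse 7 (adjusted p of the difference 1.8e-04). Fosl2, the Fos relative also called Fra-2, fell from 218 ± 10.5 to 190.4 ± 12.01 CPM (-0.20 ± 0.04, adjusted p = 0.0014), lower in 6 of 6 tibia libraries than the femur mean of their mouse. Maf and Fosl2 were not called on the sums (adjusted p = 0.122 and 0.186). The median log2 fold change of the list was -0.02, against -0.0021 over all genes.

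Of 33 other immediate early genes, 5 rose and 0 fell. Ptgs2, which encodes the inducible cyclooxygenase, rose from 4.39 ± 1.73 to 7.497 ± 2.92 CPM (log2 fold change 0.78 ± 0.21, adjusted p = 0.0253, edgeR). Ier3, a stress-inducible survival gene, rose from 25.3 ± 9.01 to 38.6 ± 12.4 CPM (0.62 ± 0.19, adjusted p = 0.0470). Both moved with the 10 between libraries (r = 0.92 and 0.97). Ptgs2, as low as 2.28 CPM, was outside the set compared above, which needed 10 CPM in every library. Their calls depended on single libraries: that of Ier3 was lost without any of 8 libraries and that of Ptgs2 without any of 5 (adjusted p up to 0.157 and 0.0736). On the sums Ier3 was called (0.0029) and Ptgs2 was not (0.0592). DESeq2 called neither (adjusted p = 0.221 for Ier3 and 0.0667 for Ptgs2), and Ier3 was not called when genes had to reach 5 CPM in 3 or more libraries (0.0501). Socs3, a feedback inhibitor of cytokine signalling, rose from 67.4 ± 17.1 to 93.7 ± 11.9 CPM (0.50 ± 0.11, adjusted p = 0.0047; 0.119 on the sums), and its change was larger in mouse 19 than in mouse 7 (0.87 against 0.15, adjusted p of the difference 0.0019). Zfp36l1, a relative of Zfp36, and the kinase gene Sgk1 rose as well, but neither was called on the sums (adjusted p = 0.317 for Zfp36l1), and the estimate for Zfp36l1 in mouse 7 was 0.02. The median log2 fold change of the list was 0.0046.

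Of 27 tested upstream kinases and factors 0 rose and 2 fell (7.41%), near the 7.2% called over all genes. These were Map3k1, a kinase that feeds JNK, with a log2 fold change of -0.18 ± 0.05 (adjusted p = 0.0289, edgeR), and Mkl1, a partner of SRF, with -0.11 ± 0.03 (0.0451). The call on Map3k1 was lost without any of 4 libraries and that on Mkl1 without any of 11 (adjusted p up to 0.0838 and 0.137), and neither was called on the sums (0.248 and 0.520). With upper quartile scaling the call on Mkl1 was lost too (0.0551). Among 8 MAP kinase phosphatases besides Dusp1, only Dusp7 was called, falling from 82.0 ± 7.33 to 69.5 ± 5.16 CPM (-0.24 ± 0.05, adjusted p = 0.0061; 0.219 on the sums). Of 7 tested genes of the BTG and TOB family besides Btg2, 0 were called.

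Of 16 genes often given as AP-1 targets, 6 rose and 2 fell. The 5 named here are the called genes with the largest changes in each direction, so they do not stand for the list. The median log2 fold change of the list was 0.10, against -0.0021 over all genes. Spp1, which encodes osteopontin, rose in all 6 tibia libraries, with a log2 fold change of 2.70 ± 0.07 (adjusted p = 2.1e-19, edgeR). Mmp14, a membrane-bound matrix protease gene, rose from 7.63 ± 1.55 to 21.5 ± 6.34 CPM (1.47 ± 0.11, adjusted p = 2.4e-09). Timp1, the inhibitor of such proteases, was barely present, at 0.197 ± 0.183 CPM in the femur and 0.750 ± 0.273 in the tibia (1.87 ± 0.52, adjusted p = 0.0305), and was listed at 0 in 2 femur libraries of mouse 7. Its call was lost without any of 6 libraries (adjusted p up to 0.0742) and on the sums (0.219). The secreted protease gene Mmp9 fell from 422 ± 98.2 to 337 ± 111 CPM (-0.36 ± 0.04, adjusted p = 1.8e-05), by more in mouse 7 than in mouse 19 (-0.49 against -0.23, adjusted p of the difference 0.0151). Itgax, the integrin gene of CD11c, fell from 64.2 ± 11.2 to 51.1 ± 9.44 CPM (-0.33 ± 0.04, adjusted p = 2.9e-05). Spp1, Mmp14, Mmp9 and Itgax were called on the sums as well. Mmp9 is also a neutrophil granule gene, and of 9 neutrophil markers tested 2 rose and 3 fell in the tibia. Itgax is itself 1 of the 8 dendritic cell markers, of which 0 rose and 3 fell, Itgax included. Of all genes 7.2% were called. The part of these cells in the 2 changes was not tested.

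Of 13 tested heat shock genes, another class known to respond to the handling of cells, 1 rose and 3 fell. Hspa1a fell from 25.8 ± 6.42 to 6.43 ± 0.653 CPM (log2 fold change -1.99 ± 0.12, adjusted p = 5.4e-11, edgeR) and Hspa1b from 35.8 ± 4.91 to 9.17 ± 2.49 CPM (-1.98 ± 0.12, adjusted p = 4.4e-11). Both encode the inducible chaperone Hsp70 from near-identical sequences, so reads can be split between them, and both were called on the sums. Hspa8, the constitutive relative, fell by 0.14 ± 0.03 on the log2 scale (adjusted p = 0.0042; 0.434 on the sums), and Hspa5, the chaperone of the endoplasmic reticulum, rose by 0.17 ± 0.03 (0.0014; 0.237 on the sums). The fall of Hspa8 was larger in mouse 7 (-0.23) than in mouse 19 (-0.05; adjusted p of the difference 0.0173). The highest tibia library held 7.00 CPM of Hspa1a and the lowest femur library 21.6 CPM, so here the bones were separate in both mice, unlike in the 10 immediate early and AP-1 genes.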

How the data were processed

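Sorted marrow macrophages of 2 mice were analysed, with 3 libraries from the tibia that had received MSCs and 3 from the untreated femur of each. RNA was isolated on columns with DNase treatment and made into mRNA libraries with a Vazyme kit, per the labels' protocols. The authors deposited raw read counts per gene, in whole numbers. The submitters' processing notes name bcl2fastq, HISAT2, featureCounts, Subread, DESeq2 and mm10. No source used here gives versions, settings or strand handling, so reads of overlapping genes cannot be told apart. Among counts of 1 to 10, 69.8% were even, as when both ends of a pair are counted, so halved counts were fitted too, a choice made after the data were seen. All sample columns were mapped by title (0 left over), and 27 gene names had become dates.

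Counts were tested in R 4.3.3 with edgeR 4.0.16 (TMM, filterByExpr with a minimum count of 10 over the 4 groups, quasi-likelihood test, two-sided, Benjamini-Hochberg adjusted p under 0.05 over 11806 genes). The mouse, which the titles give and which pairs tibia with femur, was a term over both mice, and the other contrasts came from a model of 4 group means. CPM used TMM-scaled library sizes, with a prior count of 1 on the log2 scale. Standard errors were taken from the change and its F value (|change| over the root of F). The script was checked on simulated counts. Total counts of 9773455 to 14869150 per library set the precision. Libraries of 1 group were kept apart, and their counts differed by 2.73 to 6.28 chi-square units per gene. If both ends of a pair were counted, sampling alone would raise this value, so its excess over sampling noise is not known. Nor does it tell separate sorts from repeat libraries of 1 RNA sample.

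The 10 genes and all lists were chosen with earlier results of these data known. All 10 genes are named; of each pathway list, the 3 genes called over both mice with the largest change in each direction and up to 3 whose difference between mice passed; and the 5 genes most like the 10 in their levels. Zfp36l1, Sgk1 and the genes named for following the swing were named after their values were seen. Of 245 genes on the lists, 240 were matched. Exon lengths come from GENCODE, promoters and coordinates from RefSeq on GRCm38.p6. Alternatives were RLE and upper quartile scaling, other filters, DESeq2 1.42.0, sums per mouse and bone, other blocks and each library left out. A result on 1 further gene of the lists is not reported here.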

Additional observations from a re-analysis of the deposited data

Results flagged for a closer look

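For 0 of the 10 genes did the difference between the mice pass the threshold. In the pathway lists 13 genes did so by the edgeR test of the difference itself (mouse 19 minus mouse 7, log2, Benjamini-Hochberg adjusted over all genes). That was 10.4% of those tested, against 4.74% of all genes tested. As the lists were chosen with earlier results of these data known, this share cannot be read as an excess. Among the AP-1 relatives, Maf differed by 0.80 (adjusted p = 1.8e-04), with 0.21 in mouse 7 and 1.01 in mouse 19. Among other immediate early genes, Socs3 differed by 0.71 (0.0019), Zfp36l1 by 0.67 (1.6e-05) and Klf4 by -0.45 (0.0011), and each of these changed in mouse 19 (0.87, 0.68 and -0.39) and not past the threshold in mouse 7. The kinase gene Rps6ka5 differed by -0.47 (0.0068), with 0.24 in mouse 7 and -0.23 in mouse 19. The ERK phosphatase gene Dusp6 differed by 0.65 (8.7e-07), with -0.11 in mouse 7 and 0.54 in mouse 19. Dusp16, a phosphatase of JNK, differed by 0.75 (0.0050), with -0.44 in mouse 7 and 0.31 in mouse 19. Among AP-1 targets, the differences were 0.81 for Il1b (8.7e-05), 0.45 for Hmox1 (1.0e-04), 0.27 for Fth1 (0.0048) and 0.26 for Mmp9 (0.0151). Il1b rose by 0.77 in mouse 19 and stood at -0.04 in mouse 7. Mmp9 fell in both mice, by 0.49 in mouse 7 and 0.23 in mouse 19. Among heat shock genes, Hsph1 differed by 0.36 (0.0099) and Hspa8 by 0.17 (0.0173). The difference of Hsph1 was lost without femur library 3 of mouse 19 (adjusted p = 0.0577) and that of Hspa8 without femur library 3 of either mouse (adjusted p up to 0.0862). With 1 animal on each side, these are differences between 2 mice.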

How the results depend on the processing

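Under RLE and upper quartile scaling, a filter of 5 CPM in at least 3 libraries, DESeq2, halved counts and sums per mouse and bone, 0 of the 10 genes were called between bones over both mice. With no filter on low counts, 3 were called higher over both mice, 5 higher in mouse 7, 2 higher and 2 lower in mouse 19, 3 lower for the difference between mice, and 6 higher and 2 lower for femur against femur, and there the spread of each gene was replaced by the shared trend. Leaving out each library in turn gave 0 to 1 called higher over both mice and in mouse 19, 0 to 1 lower for the difference between mice, and 2 to 5 higher and 0 to 2 lower between femurs. On sums, 4 pathway genes were higher and 4 lower, against 14 and 9. Of 307 estimates for single genes under other settings 1 changed sign: Fosb was -0.073 over both mice with no replicate block (mouse term left out). With 1 library left out, some small estimates crossed 0. Over both mice the ranges were -0.018 to 0.16 for Fos, -0.093 to 0.29 for Fosb, -0.20 to 0.053 for Jun, -0.025 to 0.16 for Jund and -0.14 to 0.020 for Btg2. In mouse 7 they were -0.15 to 0.20 for Jun, -0.086 to 0.14 for Jund, -0.033 to 0.15 for Ier2, -4.4e-04 to 0.42 for Atf3, -0.0038 to 0.46 for Dusp1 and -0.22 to 0.0060 for Btg2. In mouse 19 they were -0.25 to 0.16 for Fos, -0.70 to 0.053 for Fosb, -0.47 to 0.10 for Jun, -0.075 to 0.34 for Jund, -0.10 to 0.27 for Egr1, -0.070 to 0.22 for Ier2, -0.21 to 0.68 for Atf3, -0.22 to 0.47 for Dusp1 and -0.19 to 0.18 for Btg2. Between femurs they were -0.083 to 0.21 for Ier2, -0.52 to 0.18 for Atf3 and -0.13 to 0.46 for Dusp1. The cause of these changes was not tested.

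The library numbers gave no sign of pairing tibia with femur. Deviations of libraries with the same number had r from -0.05 to 0.00 over genes, and those with different numbers from -0.05 to 0.05. Such values cannot show whether libraries of the same number were prepared together. With the library number as a replicate block, 0 of the 10 genes were called over both mice, and the calls on Ier3, Mkl1 and Timp1 were lost (adjusted p = 0.0771, 0.0788 and 0.0759, edgeR). With the mouse term left out, 14 calls on pathway genes chosen by the naming rule were lost.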
